A study of Mus musculus with 60 samples.

Results

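The cholesterol module followed here comprised 34 genes, chosen by name for their place in making, sensing, moving, storing or removing cholesterol. The deposited table held 47643 gene symbols, of which 15608 were tested, and all 34 genes were among those tested. They fell into 5 roles. There were 8 genes of the mevalonate and isoprenoid part of synthesis, 11 genes of the sterol part, 5 sensors and regulators, 7 genes of uptake, transport, storage and removal, and 3 genes of the liver X receptor (LXR) arm, of which 2 code for receptors and 1 for a target.

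RNA from mouse hippocampus, the brain region of memory formation, was sequenced in 60 libraries. Mice labelled CAC received cachectic melanoma cells, named for cachexia, the wasting of body mass. Tumour size and body mass of the mice were not examined here, so wasting is not shown for any of them. Mice labelled NCAC received non-cachectic melanoma cells, and mice labelled Con were mock injected. The CAC group had 4, 5, 5 and 7 libraries at 2, 4, 6 and 8 weeks after injection. The NCAC group had 5, 5, 4 and 5 at these times, and Con had 5 at each. All mice were female and 2 months old per the labels. The sample labels name the strain C57BL6/J, whereas the text on the series names NCI Ath/nude mice, so the immune status of the hosts was not settled. The extraction text also mentions LLC cells at 3 weeks, which matches none of the groups. The replicates are labelled biological, but nothing ties each one to a separate mouse, so a p-value here is set against the scatter among these samples, which may be partly technical.

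The brain makes nearly all of its cholesterol in place, because lipoproteins of the blood do not cross the blood-brain barrier. Acetyl-CoA is turned into mevalonate, isoprenoids and squalene, which is closed into lanosterol and trimmed to cholesterol. When membranes are poor in sterol, Scap escorts the SREBP factors (from Srebf1 and Srebf2) from the endoplasmic reticulum to be cut, and they switch on the synthesis genes, while the Insig proteins hold them back. When oxysterols build up, the LXR receptors raise export genes such as Abca1. Astrocytes ship cholesterol on Apoe particles, oligodendrocytes use it for myelin, and neurons dispose of it by way of Cyp46a1.

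Promoter sequences are shown for 5 genes: the 4 synthesis genes with the lowest differences between CAC and Con, averaged over the 4 times, and the exporter Abca1, which had the highest. They are RefSeq windows of 300 bases on GRCm38.p6, from 250 bases before the start of the transcript to 50 bases after it. Hmgcs1 lies at chr13:119690101-119690400 (plus strand), Idi1 at chr13:8885356-8885655 (plus strand), Msmo1 at chr8:64733529-64733828 (minus strand), Tm7sf2 at chr19:6067801-6068100 (minus strand) and Abca1 at chr4:53159846-53160145 (minus strand). Capitals mark a match to TCACNCCAC, the core of the sterol regulatory element that SREBP factors bind, or to CCAAT, the box bound by NF-Y, on either strand (on the opposite strand CCAAT reads ATTGG).
Hmgcs1: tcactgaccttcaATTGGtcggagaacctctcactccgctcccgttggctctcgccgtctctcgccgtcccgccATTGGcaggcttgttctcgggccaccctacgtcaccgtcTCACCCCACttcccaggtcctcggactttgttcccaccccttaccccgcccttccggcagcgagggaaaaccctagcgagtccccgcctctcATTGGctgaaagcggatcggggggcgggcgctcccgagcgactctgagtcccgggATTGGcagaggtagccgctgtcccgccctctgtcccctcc
Idi1: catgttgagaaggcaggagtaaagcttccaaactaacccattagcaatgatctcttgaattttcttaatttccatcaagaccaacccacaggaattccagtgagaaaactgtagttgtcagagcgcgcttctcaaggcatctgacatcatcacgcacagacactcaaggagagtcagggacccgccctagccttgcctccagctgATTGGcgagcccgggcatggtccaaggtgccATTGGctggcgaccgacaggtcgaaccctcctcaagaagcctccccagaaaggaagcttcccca
Msmo1: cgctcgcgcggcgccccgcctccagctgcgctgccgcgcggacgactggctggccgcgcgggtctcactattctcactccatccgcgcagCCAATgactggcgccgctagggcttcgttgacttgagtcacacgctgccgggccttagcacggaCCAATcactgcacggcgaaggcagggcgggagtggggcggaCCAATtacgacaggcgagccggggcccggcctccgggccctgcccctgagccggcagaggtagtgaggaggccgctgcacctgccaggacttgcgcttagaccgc
Tm7sf2: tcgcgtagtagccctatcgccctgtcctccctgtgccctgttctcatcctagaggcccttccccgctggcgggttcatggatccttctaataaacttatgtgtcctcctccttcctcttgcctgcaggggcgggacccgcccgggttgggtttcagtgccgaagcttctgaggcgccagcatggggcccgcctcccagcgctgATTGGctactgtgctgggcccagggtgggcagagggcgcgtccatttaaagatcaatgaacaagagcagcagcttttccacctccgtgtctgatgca
Abca1: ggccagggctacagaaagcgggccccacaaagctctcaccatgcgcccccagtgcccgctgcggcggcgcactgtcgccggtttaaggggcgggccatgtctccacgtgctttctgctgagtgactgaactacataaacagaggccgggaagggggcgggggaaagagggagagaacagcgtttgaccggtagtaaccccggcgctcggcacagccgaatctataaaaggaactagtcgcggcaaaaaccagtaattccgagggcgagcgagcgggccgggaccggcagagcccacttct
The sterol regulatory element core was present in 1.24% of all 32851 RefSeq windows and, among the 28 genes of the module with a window, in Hmgcs1 alone, at bases -137 to -129 when the first base of the transcript is 0. CCAAT was present in 37.4% of all windows, and in at least 1 window of 41.1% of the 27025 genes with any. It occurred in 15 of the 16 synthesis genes with a window and in 7 of the 12 other genes with one. Hmgcs1 held 4 CCAAT matches, Msmo1 held 3, Idi1 held 2 and Tm7sf2 held 1. The full LXR element, searched only as a direct repeat with both copies exact, was present in 0.0761% of all windows and in no window of the module. Forms with a changed copy were not searched, so the windows of the module, Abca1 included, are not shown to lack an LXR element. A match describes the letters of a window and is not evidence of binding, and no marked match overlaps another.

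The libraries held 32388193 to 42046753 reads assigned to genes, as recovered from the steps of the TPM values. The hippocampal markers Prox1, Spink8, Neurod6, Wfs1 and Dsp were above 0 in each library, with a summed level of 413 to 785 TPM. There were 6 libraries with much RNA of striatum or erythrocytes, called libraries rich in other RNA below. This was defined as log2 striatal or erythrocyte marker levels, averaged over the markers of that source, over 1.5 log2 units above the median library. Striatal markers were high in CAC 2 weeks replicate 1, CAC 4 weeks replicates 1 and 4, and Con 4 weeks replicate 2. Erythrocyte markers were high in CAC 4 weeks replicates 1 and 2 and in CAC 8 weeks replicate 3, where they summed to 7921 TPM. The module's counts at single weeks and over the 4 times are also given without these 6 libraries where that moved them by over 1.5 times. Choroid plexus markers were not part of this definition, although their summed level varied widely. At 4 weeks it was 184 to 1644 TPM in CAC, 159 to 8976 TPM in NCAC and 2534 to 4994 TPM in Con. At 8 weeks it was 41.4 to 10825 TPM in NCAC. The 6 libraries were not chosen by such RNA, and its part in the differences of the module was not tested.

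Transcript levels spanned a wide range. TPM, which corrects read counts for transcript length and library size, averaged 1241 ± 244 for Apoe, the main lipid carrier of the brain, over the 60 libraries (SD). Hmgcs1, which makes HMG-CoA, followed at 244 ± 33.3 TPM, and the neuronal cholesterol hydroxylase Cyp46a1 at 160 ± 18 TPM. Even the lowest Apoe library (534 TPM) was above the highest Hmgcs1 library (299 TPM), whereas the highest Cyp46a1 library (194 TPM) lay above the lowest Hmgcs1 library (149 TPM). The master regulator Srebf2 averaged 101 ± 10.4 TPM, the farnesyl diphosphate synthase Fdps 79.3 ± 7.18 TPM and the squalene synthase Fdft1 75.6 ± 7.62 TPM, and the last 2 lay within one another's spread. The least abundant genes were Hsd17b7 (15.0 ± 1.21 TPM), the sterol reductase Tm7sf2 (12.5 ± 1.73 TPM) and the LXR receptor Nr1h3 (4.38 ± 0.709 TPM). Nr1h3 was counted with 76 to 150 reads per library, fewer than any other gene of the module. Relative spread over the libraries ran from a coefficient of variation of 6.88% for Scap to 20.6% for Nr1h2, with 20.1% for Abca1 and 19.7% for Apoe.

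The first question was whether the module differed between the groups when all 4 times were averaged with equal weight. Of the 19 synthesis genes, 8 fell and 1 rose in CAC relative to Con, and again 8 fell and 1 rose in CAC relative to NCAC. The exporter Abca1 rose in both comparisons, by 19.6% relative to Con and 21.5% relative to NCAC. Over all roles, 12 of 34 genes passed the test in CAC against Con (limma on log2(TPM + 0.5), Benjamini-Hochberg adjusted p under 0.05), against 19.8% of all tested genes. Of these, 9 fell, where 4.95% of all genes fell, and 3 rose, where 14.9% of all genes rose. Against NCAC, 11 of 34 genes passed in CAC, against 15.7% of all genes. There 8 fell, against 4.11% of all genes, and 3 rose, against 11.6%. The 2 comparisons share the CAC libraries, so their values are given side by side and are not independent of each other. Without the 6 libraries rich in other RNA 8 genes passed against Con and 6 against NCAC. Without the 4-week libraries, an alternative chosen after seeing the data, 8 passed against Con and 2 against NCAC, namely Tm7sf2 and Abca1. With voom on recovered reads 14 genes fell and 2 rose against Con, while over all genes that fit moved the split to 1278 lower and 1327 higher calls, against 772 lower and 2323 higher in the limma fit.

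**Figure D1:**
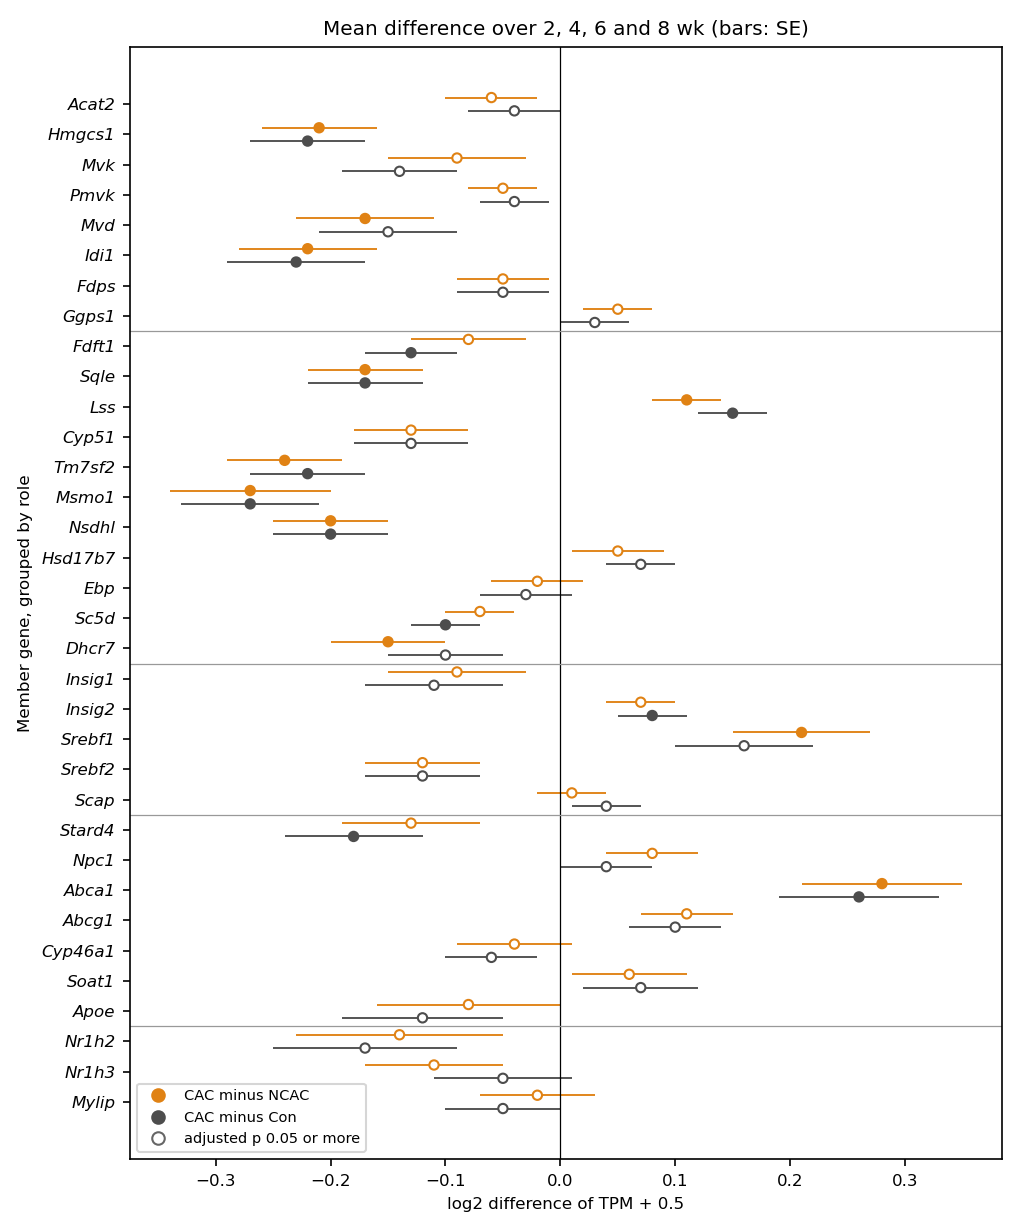
Log2 difference of each of the 34 genes averaged over the 4 times (horizontal axis, point and SE), for CAC minus Con and CAC minus NCAC, with genes arranged by role. The sterol genes Msmo1 and Tm7sf2 lie at the low end (Msmo1 at -0.27 in both) and Abca1 at the high end (0.26 and 0.28).

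Within the mevalonate part, the synthase Hmgcs1 fell by 0.22 ± 0.05 log2 units (SE) in CAC relative to Con (adjusted p = 0.0019, limma), which is a change of -14.2%. It fell by 0.21 ± 0.05 relative to NCAC (adjusted p = 0.00392). The isomerase Idi1, which interconverts the first isoprenoid units, fell by 0.23 ± 0.06 relative to Con (adjusted p = 0.00443) and by 0.22 ± 0.06 relative to NCAC (adjusted p = 0.00981). Mvd, the decarboxylase that ends the mevalonate steps, fell by 0.17 ± 0.06 relative to NCAC (adjusted p = 0.0359), whereas its difference from Con of -0.15 did not pass (adjusted p = 0.0567). The thiolase Acat2, the kinases Mvk and Pmvk, Fdps and the geranylgeranyl diphosphate synthase Ggps1, which feeds protein prenylation, did not pass in either comparison, with log2 differences of -0.14 to 0.05.

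Within the sterol part, the C4 methyl oxidase Msmo1 had the lowest difference of the module, -0.27 ± 0.06 log2 units relative to Con (adjusted p = 0.00253) and -0.27 ± 0.07 relative to NCAC (adjusted p = 0.00458). Nsdhl, the dehydrogenase that acts in the same demethylation, fell by 0.20 ± 0.05 in each comparison (adjusted p = 0.00241 against Con and 0.00396 against NCAC). Tm7sf2 fell by 0.22 ± 0.05 relative to Con (adjusted p = 0.00154) and by 0.24 ± 0.05 relative to NCAC (adjusted p = 0.0012). The squalene epoxidase Sqle, a rate-controlling step, fell by 0.17 ± 0.05 in each comparison (adjusted p = 0.0133 and 0.0194). Fdft1 (-0.13 ± 0.04, adjusted p = 0.0416) and the desaturase Sc5d (-0.10 ± 0.03, adjusted p = 0.0224) fell relative to Con, while their differences from NCAC of -0.08 and -0.07 did not pass. Dhcr7, which performs a last reduction to cholesterol, fell by 0.15 ± 0.05 relative to NCAC (adjusted p = 0.0241). Lss, which closes the ring to lanosterol, went the other way, with 0.15 ± 0.03 relative to Con (adjusted p = 0.00108) and 0.11 ± 0.03 relative to NCAC (adjusted p = 0.0158). Cyp51 (-0.13 in each comparison), Ebp and Hsd17b7 did not pass in either comparison. Exons of several synthesis genes overlap those of other genes. Tm7sf2 shares 532 exon bases, 12.1% of its exonic length, with Vps51 on the same strand, and Vps51 differed by -0.02 from Con (adjusted p = 0.853) and by -0.03 from NCAC (adjusted p = 0.699). Fdft1 shares 18.3% of its exonic length with Ctsb on the opposite strand, and whether counting used the strand is not given in the sources used here. Cyp51 shares 3.76% with Akap9 on the opposite strand, which had a median of 19 TPM, and Lss shares 3.53% with an antisense gene whose median was 0 TPM. Fdps shares 26.7% with a gene on the same strand at a median of 0.987 TPM, and Hmgcs1 (12.1%) and Idi1 (9.22%) overlap genes on the opposite strand whose levels were not analysed here.

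The median log2 difference of the 19 synthesis genes was -0.13 for CAC against Con, where the median of all tested genes was 0.03, and 16 of the 19 differences were negative. For CAC against NCAC the median was -0.09, where that of all genes was 0.02. Taken by week, 9 of 19 were negative in CAC against Con at 2 weeks, 18 at 4 weeks, 15 at 6 weeks and 15 at 8 weeks, with medians of 0.01, -0.16, -0.15 and -0.09. Against NCAC, 5 of 19 were negative at 2 weeks, 17 at 4 weeks, 14 at 6 weeks and 17 at 8 weeks, with medians of 0.03, -0.19, -0.13 and -0.12. The medians of all tested genes at these times were 0.056, -0.005, 0.015 and 0.048 against Con, and 0.022, 0.017, 0.034 and 0.02 against NCAC. Negative differences of synthesis genes thus outnumbered positive ones from 4 weeks onwards in both comparisons, and not at 2 weeks. At 2 weeks against Con, however, 63.8% of all genes had a positive difference, and the synthesis median of 0.01 already lay below that of all genes. A start at 4 weeks is therefore not shown against Con. Without the 6 libraries rich in other RNA, which include 3 of the 5 CAC libraries at 4 weeks, 14 of 19 were negative at 4 weeks against Con and 12 against NCAC, with medians of -0.08 and -0.01. Under the same omission the medians at 8 weeks were -0.11 and -0.14, and those over the 4 times were -0.06 and -0.07. In bulk tissue, fewer cells of a type and less RNA per cell cannot be told apart.

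**Figure D2:**
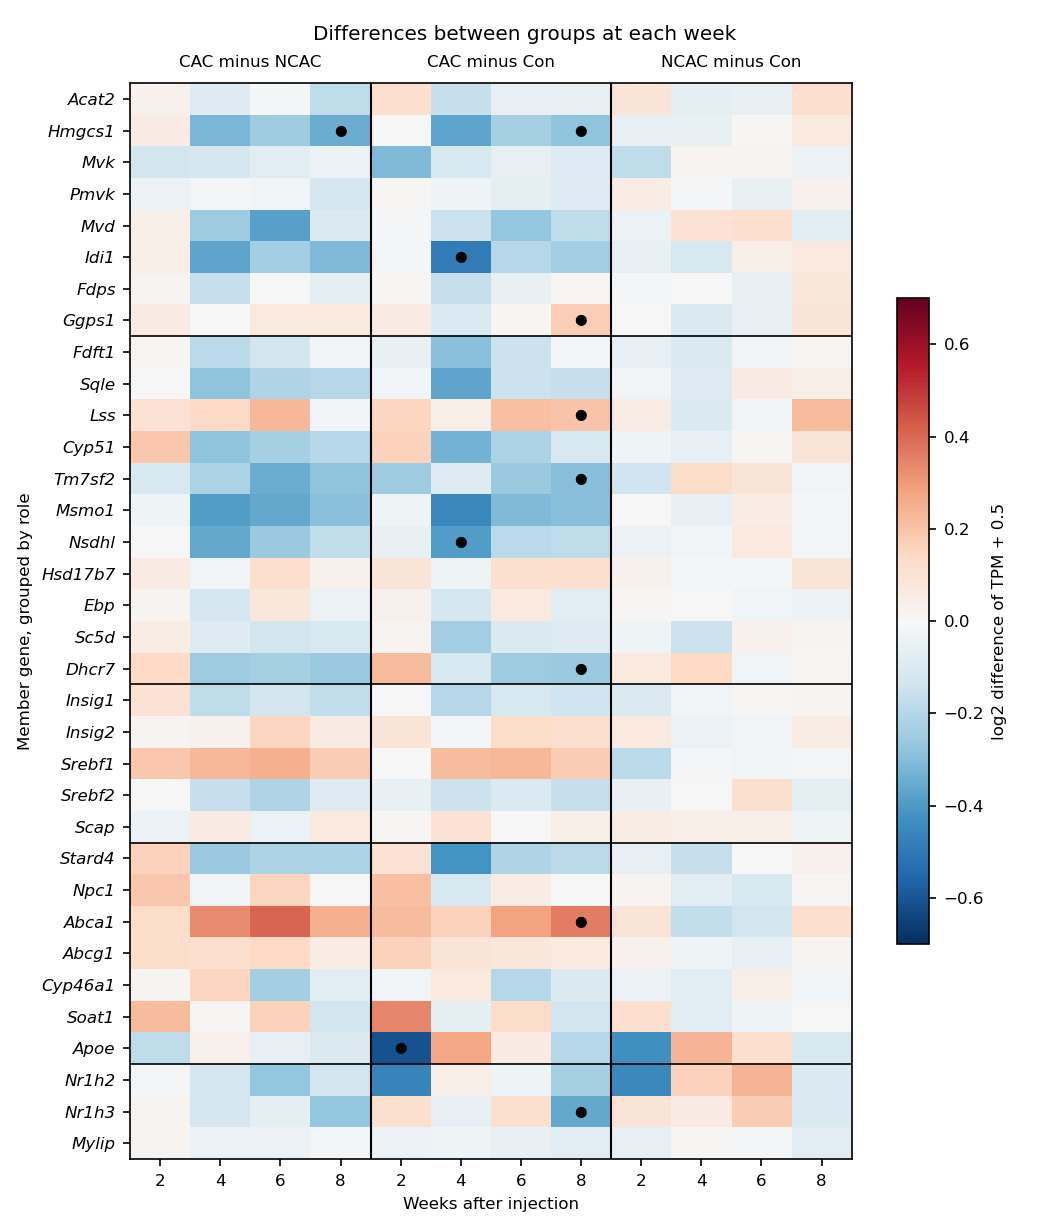
Log2 differences (colour scale) of the 34 genes, in rows arranged by role, for CAC minus Con, CAC minus NCAC and NCAC minus Con at 2, 4, 6 and 8 weeks. A dot marks an adjusted p under 0.05, which 7 genes reached in CAC minus Con at 8 weeks and none in NCAC minus Con at any time.

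At 8 weeks, the last time, 7 of 34 genes passed in CAC against Con, where 14.5% of all genes did. Of these 4 fell, against 3.2% of all genes, and 3 rose, against 11.3%. Hmgcs1, Tm7sf2, Dhcr7 and Nr1h3 fell, while Ggps1, Lss and Abca1 rose. With median-of-ratios scaling and with voom on recovered reads, the count was 4, all lower and for the same 4 genes, while the 3 higher calls were lost with their direction kept. With the trend in GC content and length removed the count was 6, all lower, and the differences of Ggps1, Lss and Abca1 were 0.11, 0.12 and 0.27, none past the threshold. In CAC against NCAC at 8 weeks only Hmgcs1 passed, by falling, where 1.83% of all genes passed and 0.564% fell.

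The counts at 8 weeks rested on single libraries. Leaving out 1 library at a time gave 1 to 9 genes against Con. There was 1 without Con replicate 1 or 3. There were 2 without CAC replicate 2, CAC replicate 6 or Con replicate 2, and 4 without CAC replicate 1, 4 or 7 or Con replicate 4 or 5. Against NCAC there were 3 without CAC replicate 3, 2 without NCAC replicate 3, and 0 without CAC replicate 1, 2, 5, 6 or 7 or NCAC replicate 1, 2, 4 or 5. Lss lost its call against Con in 2 of these 12 fits, Tm7sf2 in 4, Nr1h3 in 6, Dhcr7 and Ggps1 in 7 each, Hmgcs1 in 8 and Abca1 in 9, with no change of direction.

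Hmgcs1 (mm10 chromosome 13, 119690379 to 119708260, plus strand) stood at 160 TPM in the lowest, 190 TPM in the median and 253 TPM in the highest of the 7 CAC libraries at 8 weeks. The 5 NCAC libraries had 240, 262, 223, 249 and 281 TPM. The 5 Con libraries had 248, 254, 258, 213 and 225 TPM. Thus 5 of the 7 CAC libraries were below every other library, while replicate 4 and the highest, the erythrocyte-rich replicate 3, lay among the other groups. The log2 difference was -0.28 ± 0.09 from Con (adjusted p = 0.0385) and -0.35 ± 0.09 from NCAC (adjusted p = 0.0386). Without the 6 libraries rich in other RNA these were -0.34 (adjusted p = 0.0029) and -0.41 (adjusted p = 0.000965).

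Tm7sf2 (chromosome 19, 6062821 to 6068373, minus strand) had 9.76, 11.4 and 14.0 TPM in the lowest, median and highest CAC library at 8 weeks. NCAC libraries had 13.8, 14.8, 13.5, 13.7 and 15.2 TPM. Con libraries had 15.2, 16.3, 14.3, 13.9 and 12.5 TPM. A single CAC library, replicate 5, reached into the range of the other groups. The difference from Con was -0.30 ± 0.09 log2 units (adjusted p = 0.0259). The separation was complete at 6 weeks, when the 5 CAC libraries had 10.4, 10.5, 10, 11.1 and 10.2 TPM, the 4 NCAC libraries had 12.9, 13.2, 13.6 and 13.9 TPM and the 5 Con libraries had 11.2, 12.7, 11.9, 13 and 14.1 TPM. Every CAC library at 6 weeks lay below every NCAC and every Con library, although neither difference passed across all genes. How many of all tested genes separated in this way was not counted.

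Dhcr7 (chromosome 7, 143823145 to 143848410, plus strand) had 18.3, 25.3 and 27.1 TPM in the lowest, median and highest CAC library at 8 weeks. NCAC libraries had 29.4, 32.8, 22.5, 30.6 and 30.9 TPM. Con libraries had 28.6, 31.0, 28.9, 27.0 and 28.8 TPM. CAC libraries were below nearly all others, with replicate 3 of CAC just above the lowest Con library and replicate 3 of NCAC within the CAC range. The difference was -0.26 ± 0.09 from Con (adjusted p = 0.0369) and -0.26 from NCAC, which did not pass.

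Idi1 and Msmo1 did not pass at 8 weeks with all libraries. Msmo1 had 25.3, 33.6 and 43.3 TPM in the lowest, median and highest CAC library, against 40.5, 50.4, 30.4, 39.1 and 46.5 TPM in NCAC and 45.1, 42.6, 44.0, 35.3 and 39.0 TPM in Con. The CAC libraries were mostly the lower ones, and the groups overlapped. Without the 6 libraries rich in other RNA, Msmo1 differed from Con by -0.36 (adjusted p = 0.016) and from NCAC by -0.35 (adjusted p = 0.0401). Under the same omission Idi1 differed by -0.30 from Con (adjusted p = 0.035) and by -0.37 from NCAC (adjusted p = 0.0233). The genes of the module that passed then numbered 10 against Con and 6 against NCAC. Leaving out CAC 8 weeks replicate 3 alone gave 9 and 3.

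Lss (chromosome 10, 76531588 to 76557138, plus strand) had 15.3, 16.5 and 18.7 TPM in the lowest, median and highest CAC library at 8 weeks. NCAC libraries had 16.8, 16.8, 18.8, 16.2 and 16.1 TPM, and Con libraries had 14.9, 14.8, 14.8, 13.5 and 14.1 TPM. All CAC and all NCAC libraries thus lay above all Con libraries, while CAC and NCAC overlapped. The difference of CAC from Con was 0.20 ± 0.06 log2 units (adjusted p = 0.0199), and that of NCAC from Con was 0.22, which did not pass. Ggps1 rose by 0.17 ± 0.06 (adjusted p = 0.0417). It shares 5.44% of its exonic length with Arid4b on the opposite strand, which differed by 0.21 in the same comparison (adjusted p = 0.0379).

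**Figure D3:**
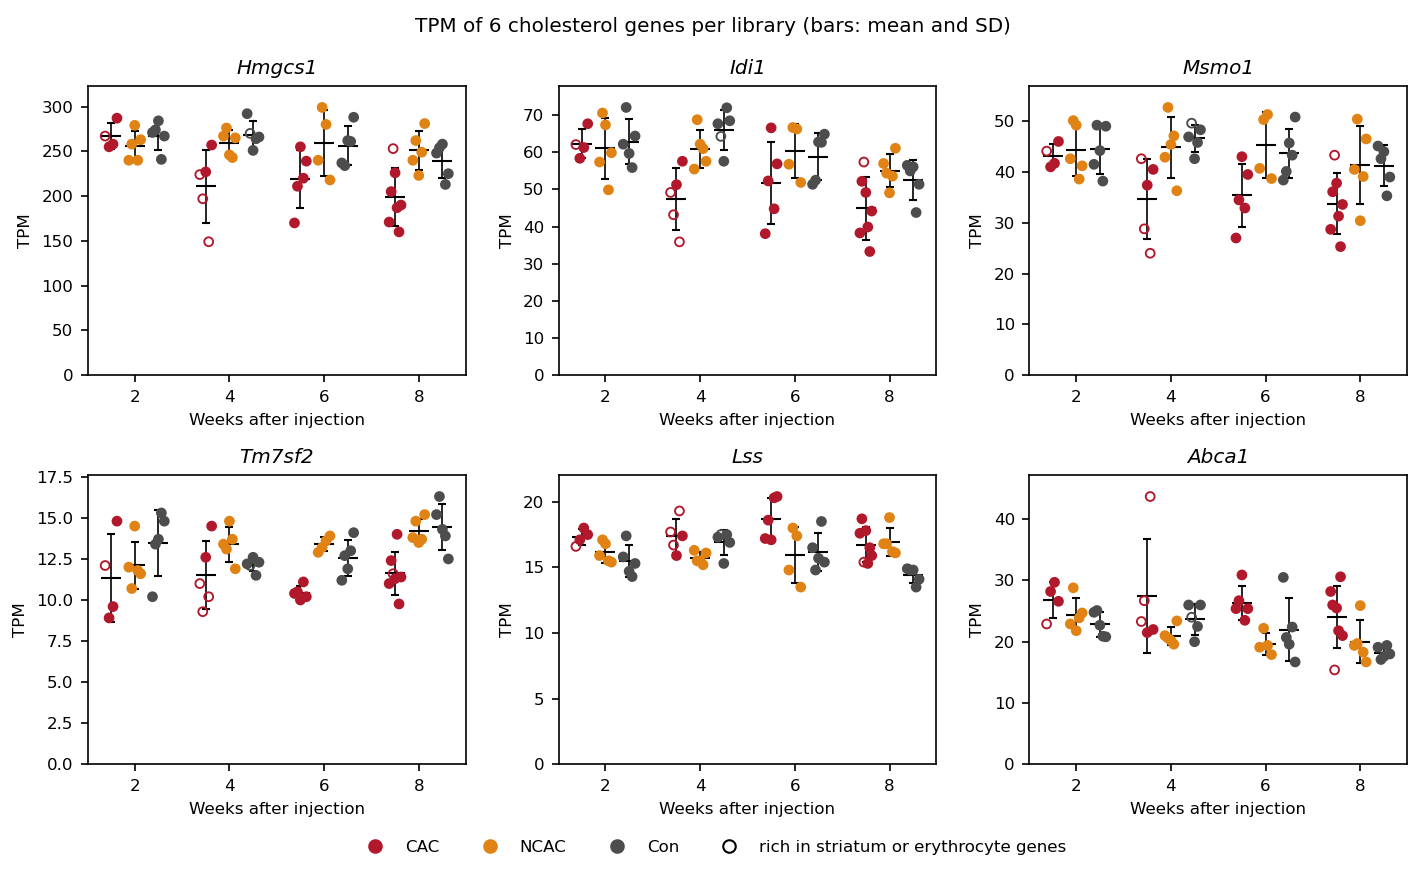
TPM of Hmgcs1, Idi1, Msmo1, Tm7sf2, Lss and Abca1 in each of the 60 libraries (points) at 2, 4, 6 and 8 weeks in CAC, NCAC and Con, with the mean and SD of each group (bars) and open symbols for the 6 libraries rich in striatal or erythrocyte genes. At 6 weeks all CAC points of Tm7sf2 lie at or below 11.1 TPM, and at 8 weeks all Con points of Lss lie at or below 14.9 TPM.

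At 4 weeks 2 of 34 genes passed in CAC against Con, where 0.801% of all genes did, and both fell, as did 0.314% of all genes. Idi1 (chromosome 13, 8885501 to 8892451, plus strand) had 49.2, 43.2, 51.3, 35.9 and 57.6 TPM in CAC, 55.5, 68.8, 62.2, 61 and 57.6 TPM in NCAC, and 67.7, 64.3, 57.6, 72.0 and 68.5 TPM in Con. Its difference from Con was -0.49 ± 0.12 log2 units (adjusted p = 0.0419). Nsdhl (chromosome X, 72918557 to 72958514, plus strand) had 24.5, 18.8, 23.6, 17.0 and 26.0 TPM in CAC, 30.0, 27.9, 27.9, 28.6 and 25.8 TPM in NCAC, and 30.2, 26.9, 28.2, 28.0 and 29.4 TPM in Con, a difference from Con of -0.39 ± 0.09 (adjusted p = 0.0419). For both genes every CAC library was below every Con library, although the highest CAC and the lowest Con value of Idi1 are equal as printed. The same held for Cyp51 and Sc5d. The share of all tested genes that separated in this way was not counted. Of the 5 CAC libraries at this time 3 were rich in striatal or erythrocyte RNA, and the lowest Idi1 and Nsdhl values came from replicates 4 and 2, which were among them. Without the 6 such libraries 0 passed with limma at 4 weeks, with 0 at an unadjusted p under 0.05. Leaving out 1 library at a time gave 9 without CAC replicate 5, 4 without CAC replicate 1 or Con replicate 2, and 0 without CAC replicate 2 or 4 or Con replicate 1, 4 or 5. Against NCAC at 4 weeks 0 of 34 passed, where 0.0128% of all genes did, with 13 at an unadjusted p under 0.05 and 0 with voom, and 2 passed without CAC replicate 5.

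At 2 weeks 1 of 34 genes passed in CAC against Con, where 3.7% of all genes did, and it fell, as did 1.98% of all genes. This was Apoe, described with the transport genes. Against NCAC at 2 weeks 0 passed with limma, where 0.0% of all genes did, with 1 at an unadjusted p under 0.05 and 0 with voom. At 6 weeks 0 of 34 passed with limma in CAC against Con, where 0.25% of all genes did, with 10 at an unadjusted p under 0.05 and 0 with voom. Against NCAC at 6 weeks 0 passed, where 1.77% of all genes did, with 12 at an unadjusted p under 0.05 and 0 with voom, and 1 passed without CAC replicate 3 or NCAC replicate 2. At that time Mvd had 18, 21.3, 21.5, 22.7 and 22.3 TPM in CAC, against 26.7, 29.8, 31.6 and 23.4 TPM in NCAC, so that all CAC libraries were below all NCAC libraries.

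In the mice given non-cachectic melanoma cells, no gene of the module passed. In NCAC against Con 0 of 34 genes passed with limma at 2, 4, 6 and 8 weeks, where 0.0% of all genes did at each time. At an unadjusted p under 0.05 there were 2, 1, 0 and 1 genes at these times, and voom called 0 at each. The 19 synthesis genes had median log2 differences of -0.02, -0.05, 0.01 and 0.03.

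Among the sensors and regulators, Srebf1, whose product mainly drives fatty acid genes and is itself a target of LXR, rose by 0.21 ± 0.06 log2 units in CAC relative to NCAC over the 4 times (adjusted p = 0.0113). Its difference from Con of 0.16 did not pass (adjusted p = 0.0508). At 6 weeks Srebf1 had 34, 32.3, 35.4, 38.6 and 34.9 TPM in CAC, 28.3, 30.7, 31.2 and 27.3 TPM in NCAC, and 29.2, 31.6, 25.1, 32.9 and 30.4 TPM in Con. All CAC libraries were above all NCAC libraries, and the lowest of them was below the highest Con library only. Insig2, which retains the SREBP complex, rose by 0.08 ± 0.03 relative to Con (adjusted p = 0.0481), close to the threshold. Srebf2 differed by -0.12 in each comparison and Insig1, itself a target of the SREBP factors, by -0.11 from Con and -0.09 from NCAC, and neither passed. Scap differed by 0.04 and 0.01 and did not pass.

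Among the genes of transport, storage and removal, the membrane exporter Abca1 (chromosome 4, 53030787 to 53159895, minus strand) rose by 0.26 ± 0.07 log2 units in CAC relative to Con (adjusted p = 0.00709) and by 0.28 ± 0.07 relative to NCAC (adjusted p = 0.00516) over the 4 times. At 8 weeks it had 15.4, 25.5 and 30.6 TPM in the lowest, median and highest CAC library, against 19.4, 19.7, 25.9, 18.3 and 16.7 TPM in NCAC and 19.1, 17.1, 17.6, 19.4 and 18 TPM in Con. The lowest CAC value came from the erythrocyte-rich replicate 3, and the other CAC libraries were above all Con libraries. The difference from Con at 8 weeks was 0.36 ± 0.13 (adjusted p = 0.0473), and 0.46 without the 6 libraries rich in other RNA (adjusted p = 0.00129). The call at 8 weeks was lost in 6 of 9 alternatives, with differences of 0.27 to 0.46 over the 9. It was also lost in 9 of 12 omissions of 1 library. At 6 weeks the CAC libraries had 25.4, 26.7, 30.9, 23.5 and 25.4 TPM, all above the NCAC libraries with 19.1, 22.2, 19.4 and 17.9 TPM, while 1 of the Con libraries with 30.5, 20.7, 19.6, 22.4 and 16.7 TPM reached into the CAC range.

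Stard4, a carrier that moves cholesterol between membranes, fell by 0.18 ± 0.06 in CAC relative to Con over the 4 times (adjusted p = 0.0362), while its difference from NCAC of -0.13 did not pass. At 4 weeks Stard4 had 17.5, 13.4, 15.3, 13 and 19 TPM in CAC, 19.4, 21.4, 17.9, 16.8 and 17.6 TPM in NCAC, and 20.9, 21.3, 18.9, 21.5 and 21.7 TPM in Con. The CAC libraries were the lower ones, with overlap at the top. The difference of Stard4 from Con at this time without the 6 libraries rich in other RNA was -0.28 (adjusted p = 0.51). The lysosomal exporter Npc1, the efflux pump Abcg1, Cyp46a1, the cholesterol esterifying enzyme Soat1 and Apoe did not pass over the 4 times, with differences of -0.12 to 0.11.

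Apoe stood out at 2 weeks. It had 602, 727, 910 and 1146 TPM in the 4 CAC libraries, 1157, 534, 920, 1134 and 1085 TPM in the NCAC libraries, and 1161, 1079, 1256, 1558 and 1252 TPM in the Con libraries. The CAC libraries were mostly below Con but spread as widely as the NCAC libraries, whose replicate 2 was the lowest of all 60. The difference of CAC from Con was -0.61 ± 0.16 log2 units (adjusted p = 0.0312). The LXR receptor Nr1h2 was low in the same CAC and NCAC libraries, with 13, 15.1, 15.2 and 25.6 TPM in CAC, 22, 8.94, 13.5, 22.6 and 22.1 TPM in NCAC, and 19.1, 22.4, 23.5, 29.7 and 22.5 TPM in Con, a difference from Con of -0.47 that did not pass. With the trend in GC content and length removed, the difference of Apoe was -0.44 (adjusted p = 0.0275). Without the striatum-rich CAC replicate 1 and the other 5 libraries of that kind it was -0.46 and did not pass (adjusted p = 0.138). Leaving out 1 library at a time, no gene passed without CAC replicate 1 or 2 or Con replicate 4 or 5, 2 genes passed without CAC replicate 4 or Con replicate 1 or 2, and 4 without CAC replicate 5.

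In the LXR arm, Nr1h3 fell by 0.36 ± 0.11 log2 units in CAC relative to Con at 8 weeks (adjusted p = 0.0277). CAC libraries had 2.79, 3.21 and 5.18 TPM as the lowest, median and highest value, NCAC libraries had 4.58, 4.33, 3.82, 3.95 and 4.18 TPM, and Con libraries had 5.04, 5.53, 4.29, 4.35 and 3.49 TPM. All CAC libraries but replicate 5 were below all NCAC libraries, and replicate 5 was above them. Over the 4 times Nr1h3 differed by -0.05 from Con and -0.11 from NCAC, Nr1h2 by -0.17 and -0.14, and Mylip, an LXR target that degrades lipoprotein receptors, by -0.05 and -0.02, and none of these passed.

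The next question was how the module moved between 2 and 8 weeks within each group. At 8 weeks against 2 weeks in CAC 16 of 34 genes passed, where 31.0% of all genes did. Of these 12 fell, against 20.1% of all genes, and 4 rose, against 10.8%. In NCAC 4 passed, where 14.0% of all genes did, and all 4 rose, against 4.68% of all genes. In Con 1 passed, where 9.67% of all genes did, and it fell, against 8.0%. The genes that fell in CAC were the synthesis genes Acat2, Hmgcs1, Idi1, Cyp51, Msmo1, Ebp, Sc5d and Dhcr7, the carriers Stard4 and Npc1, the esterifying enzyme Soat1, and Nr1h3. Dhcr7 fell by 0.50 ± 0.09 log2 units (adjusted p = 0.000114), with 18.3, 25.3 and 27.1 TPM as lowest, median and highest value at 8 weeks against 34.3, 31.7, 33.2 and 37.8 TPM at 2 weeks, and the 2 times did not overlap. Idi1 fell by 0.49 ± 0.12 (adjusted p = 0.00175), Hmgcs1 by 0.44 ± 0.10 (adjusted p = 0.00115) and Sc5d by 0.30 ± 0.06 (adjusted p = 0.000503). The gene that fell in Con was Ggps1 (-0.24 ± 0.06, adjusted p = 0.0145). Leaving out 1 library at a time changed these counts to 10 in CAC without CAC 2 weeks replicate 1. In NCAC they became 0 without NCAC 2 weeks replicate 2, and 2 without NCAC 2 weeks replicate 3 or NCAC 8 weeks replicate 1, 2 or 5. In Con they became 0 without Con 2 weeks replicate 1 and 4 without Con 2 weeks replicate 4.

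The genes that rose in CAC between these times were Srebf1, Scap, Apoe and Nr1h2, and those that rose in NCAC were Srebf1, Cyp46a1, Apoe and Nr1h2. Srebf1 differed by 0.36 ± 0.12 in CAC (adjusted p = 0.0165) and by 0.36 ± 0.12 in NCAC (adjusted p = 0.0354). Apoe differed by 0.67 ± 0.15 in CAC and by 0.59 ± 0.15 in NCAC, and with the trend in GC content and length removed these were 0.40 (adjusted p = 0.00283) and 0.36 (adjusted p = 0.0331). Whether the change in CAC differed from that in Con was tested directly, and 0 of 34 genes passed with limma, where 0.00641% of all genes did, with 3 at an unadjusted p under 0.05 and 0 with voom. The lowest of these differences were -0.48 for Dhcr7 (adjusted p = 0.205) and -0.48 for Soat1 (adjusted p = 0.248). The fall in CAC is therefore not shown to differ from the course in Con. With median-of-ratios scaling and with voom, 6 genes rose and 9 fell in CAC over this time. Those fits also moved the split of all genes, to 2383 higher and 2076 lower calls with the scaling and 2250 higher and 2098 lower with voom, against 1692 higher and 3139 lower in the limma fit.

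**Figure D4:**
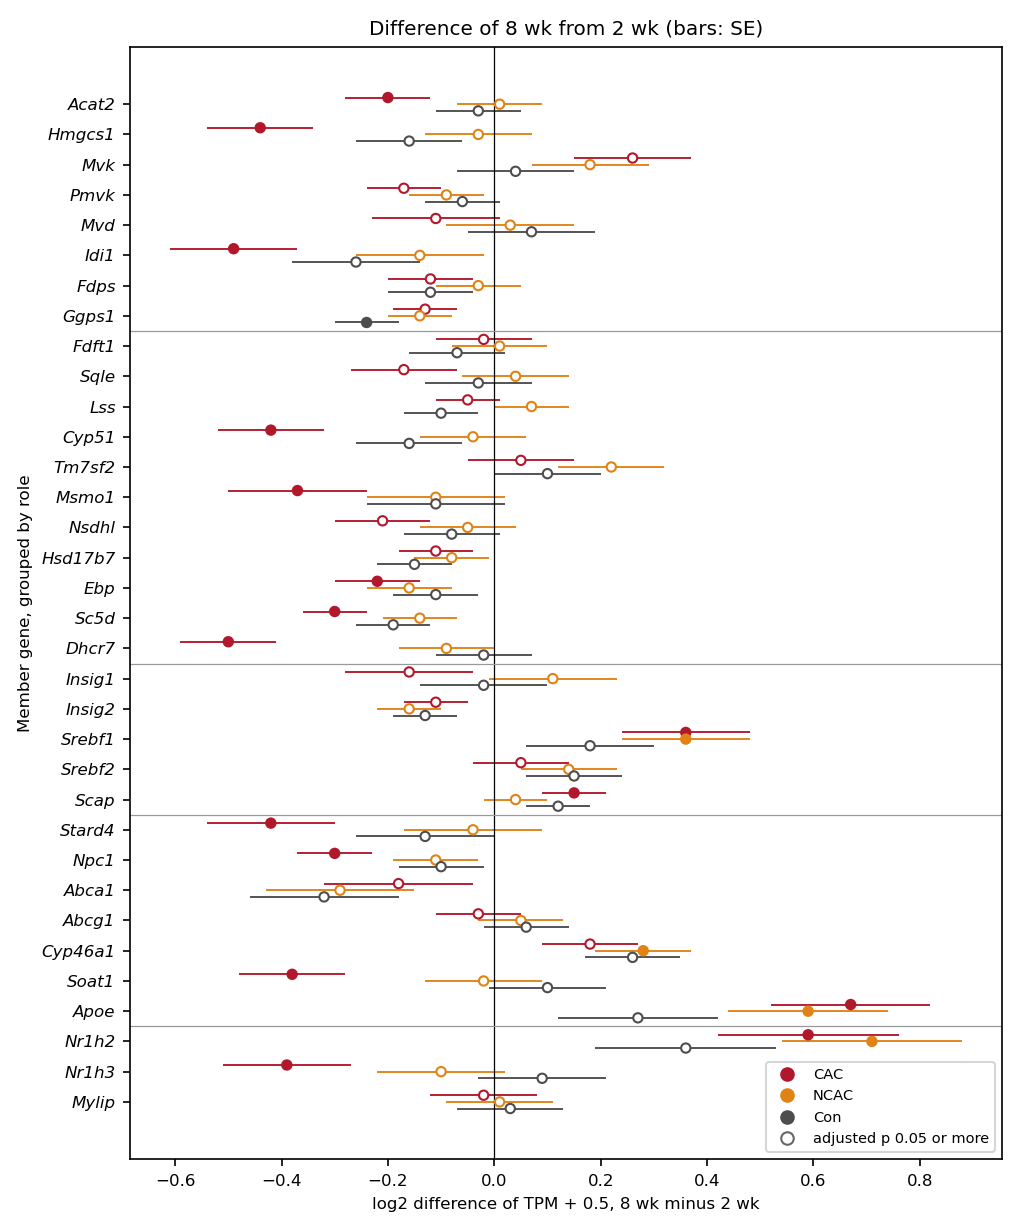
Log2 difference between 8 and 2 weeks (horizontal axis, point and SE) of the 34 genes within CAC, NCAC and Con. Dhcr7 lies at -0.50 in CAC, -0.09 in NCAC and -0.02 in Con, and Apoe at 0.67, 0.59 and 0.27.

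Within groups the synthesis genes varied together from library to library. After group means were subtracted, the Pearson correlation of log2(TPM + 0.5) over the 60 libraries had a median of 0.39 over the 171 pairs of synthesis genes and was positive in 157 of them. It was given without a p, since genes of one library share its depth and composition. Pairs of genes outside the module were not correlated for comparison. The trend in GC content and length was not removed, and its part in the correlations of the synthesis genes was not tested. Sqle (0.67), Msmo1 (0.64), Hmgcs1 (0.62) and Idi1 (0.61) had the highest median correlations with the other synthesis genes, while Lss (0.08), Ggps1 (0.19) and Hsd17b7 (0.20) had the lowest. Stard4 was positively correlated with all 19 synthesis genes, with a median of 0.67, and this was 0.67 also in the 54 libraries left after the 6 rich in other RNA were omitted. Abca1 was negatively correlated with 16 of 19, with a median of -0.37, which was -0.19 in the 54 libraries, so that its size depended on the omitted libraries. The LXR receptor Nr1h2 and Apoe had a correlation of 0.75, and of 0.79 in the 54 libraries. Neither value was computed with the trend in GC content and length removed, and the part of that trend in this correlation was not tested.

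**Figure D5:**
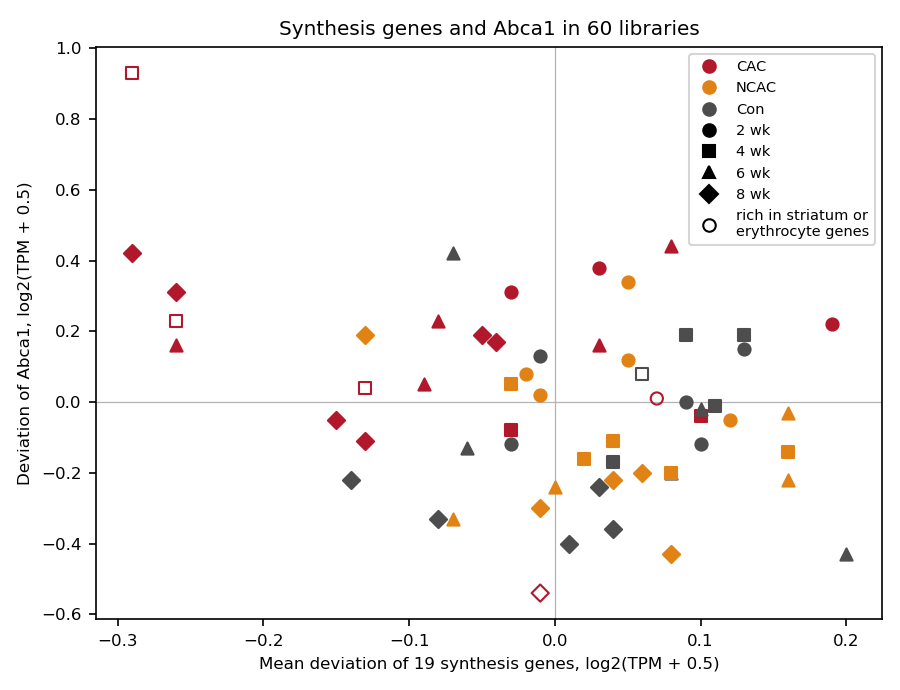
Mean log2 deviation of the 19 synthesis genes (horizontal axis) against the log2 deviation of Abca1 (vertical axis) in each of the 60 libraries, from their means over all libraries, by group. CAC libraries at 8 weeks have synthesis deviations of -0.29 to -0.01, and Con libraries at 8 weeks of -0.14 to 0.04.

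Averaged per library, the synthesis genes deviated from their overall mean by -0.29 to -0.01 log2 units in CAC at 8 weeks (median -0.13), by -0.13 to 0.08 in NCAC (median 0.04) and by -0.14 to 0.04 in Con (median 0.01). The 3 groups thus overlapped library by library. Abca1 deviated by -0.54 to 0.42 in CAC (median 0.17), by -0.43 to 0.19 in NCAC (median -0.22) and by -0.40 to -0.22 in Con (median -0.33).

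Other genes of sterol handling, 37 in all and all tested, moved in both directions. In CAC against Con at 8 weeks 6 rose and 2 fell, where 11.3% of all genes rose and 3.2% fell, with a median difference of 0.07 where that of all genes was 0.05. Those that rose included Ch25h, which makes an oxysterol (1.74 ± 0.30, adjusted p = 0.000592), Apod, a lipid-binding apolipoprotein (1.04 ± 0.27, adjusted p = 0.00973), the transporter Abca2 (0.29 ± 0.08, adjusted p = 0.0104) and Mbtps1, the protease that makes the first cut in the SREBP factors (0.26 ± 0.04, adjusted p = 0.000514). The phospholipid transfer protein Pltp (-0.70 ± 0.17, adjusted p = 0.00684) and the cholesterol acyltransferase Lcat (-0.37 ± 0.12, adjusted p = 0.0308) fell. Over the 4 times 6 rose and 2 fell in each of the 2 comparisons, where 14.9% of all genes rose and 4.95% fell against Con, and 11.6% rose and 4.11% fell against NCAC. These shares are near those of all genes. Of 11 genes of fatty acid synthesis driven by the product of Srebf1, the acyltransferase gene Gpam rose in CAC against Con over the 4 times (0.17 ± 0.04, adjusted p = 0.00238), and the median difference was -0.06. Relative to NCAC, Gpam rose (0.18 ± 0.04, adjusted p = 0.00188) while Acss2 (-0.09 ± 0.03, adjusted p = 0.0397) and Fads1 (-0.09 ± 0.03, adjusted p = 0.0246) fell, with a median of -0.02. Between 2 and 8 weeks 8 of the 11 fell in CAC, where 20.1% of all genes fell, among them Scd1 (-0.67 ± 0.15, adjusted p = 0.000752) and Scd2 (-0.44 ± 0.08, adjusted p = 6.47e-05). The median of the 11 was -0.27 in CAC, -0.13 in NCAC and -0.14 in Con.

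Myelinating oligodendrocytes make much cholesterol, and 14 of their markers were measured beside the module. In CAC against Con at 8 weeks 3 of the 14 fell, where 3.2% of all genes fell, with a median of -0.32. Against NCAC 4 fell, where 0.564% of all genes fell, with a median of -0.45. Opalin fell by 1.30 ± 0.32 relative to Con (adjusted p = 0.00783) and Ugt8a by 0.71 ± 0.25 (adjusted p = 0.0425). At 6 weeks the marker medians were -0.05 against Con and 0.01 against NCAC, where those of the synthesis genes were -0.15 and -0.13. Averaged over the 4 times 3 markers fell against Con (median -0.12), and against NCAC 2 fell and Hapln2 rose by 0.27 (adjusted p = 0.0343; median -0.11). Between 2 and 8 weeks in CAC 12 of the 14 fell, where 20.1% of all genes fell, and 1 rose, with a median of -0.87. In Con Mobp (-0.61 ± 0.18, adjusted p = 0.0249, limma) and Mal (-0.70 ± 0.18, adjusted p = 0.0152, limma) fell over this time, as did 8.0% of all genes. None of the 14 passed in the direct test of the course in CAC against that in Con, which 0.00641% of all genes passed. The fall of these markers in CAC is therefore not shown to differ from their course in Con. Without the 6 libraries rich in other RNA 5 fell and 1 rose in CAC against Con at 8 weeks, and 6 fell and 1 rose against NCAC. Between 2 and 8 weeks in CAC 11 then fell and 1 rose. Under the same omission the medians at 4 weeks were 0.02 against Con and -0.08 against NCAC, as compared with -0.23 and -0.37 with all libraries. The summed level of the markers at 8 weeks was 1504 to 2749 TPM in CAC, 1793 to 3446 TPM in NCAC and 1574 to 2604 TPM in Con, and no marker was at 0 in any library.

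Markers of other cells also differed. Of 6 microglial markers all had negative differences between CAC and Con over the 4 times (median -0.16), with medians of -0.26 at 4 weeks and -0.28 at 8 weeks. Over the 4 times Aif1 fell by 0.30 (adjusted p = 0.036, limma), where 4.95% of all genes fell. Their summed level at 8 weeks was 281 to 384 TPM in CAC, 331 to 376 TPM in NCAC and 327 to 419 TPM in Con. Of 8 astrocyte markers, the water channel gene Aqp4 fell in CAC against Con at 8 weeks (-0.59 ± 0.15, adjusted p = 0.00675) and Aldoc rose (0.37 ± 0.07, adjusted p = 0.00142). In this comparison 11.3% of all genes rose and 3.2% fell. The astrocyte markers summed to 2619 to 3243 TPM in CAC, 2495 to 2859 TPM in NCAC and 2504 to 2667 TPM in Con at that time. Of 6 neuronal markers, Snap25 (0.13 ± 0.04, adjusted p = 0.0299) and Syt1 (0.24 ± 0.06, adjusted p = 0.00783) rose in the same comparison. The hippocampal marker Spink8 rose there too (0.43 ± 0.15, adjusted p = 0.0469, limma). At 2 weeks, however, Spink8 was lower in CAC than in Con (-1.12 ± 0.17, adjusted p = 0.000597, limma). It was the 1 gene of all tested whose difference from Con changed between 2 and 8 weeks (1.56 ± 0.23, adjusted p = 0.000217, limma). Among endothelial markers in CAC against Con at 8 weeks, Ly6c1 rose (0.59 ± 0.12, adjusted p = 0.00209, limma) and Cldn5 fell (-0.55 ± 0.2, adjusted p = 0.0473, limma). The neuronal markers summed to 4463 to 4710 TPM in CAC, 4091 to 4526 TPM in NCAC and 4068 to 4497 TPM in Con at 8 weeks. The part of any of these cell types in the differences of the module was not tested.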

How the data were processed

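Per the labels' protocols, hippocampal RNA was extracted with Trizol, made into libraries with the TruSeq stranded mRNA kit and sequenced on an Illumina NovaSeq instrument. The authors deposited TPM values per gene symbol for 60 libraries; the genome build was mm10 per the submitters' processing notes. Which aligner, counter and annotation were used, and whether reads were counted by strand, is not given in the sources used here (the last bears on overlapping genes). TPM corrects for length and library size, so a few abundant genes can shift all others. Whole reads were recovered from the steps of the deposited TPM values (100.0% of 24227 genes whole within 0.02 read) and gave 32388193 to 42046753 reads per library. No 2 libraries of a group agreed within sampling noise (lowest chi-square per gene 9.2 over 123 pairs).

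Genes with at least 1 TPM in at least 4 libraries were kept (15608 of 47643), and log2(TPM + 0.5) was fitted with limma 3.58.1 in R 4.3.3 on the 12 groups together, with Benjamini-Hochberg adjustment over all tested genes at 0.05. Fold changes on this scale understate those of low genes. Means of the 4 times weight each time equally. Errors of differences are SE, and errors of levels SD. Same-numbered samples of different groups did not deviate together (median correlation -0.01 over 56 pairs, 11 over 0.1), so replicate numbers were not used as a block. The fit was also run on simulated counts with independent noise between genes. These held no trend in GC content or length and no RNA of another source, so that run cannot show how the fit handles such features. Alternatives were pseudocounts of 0.1 and 1, no filter, median-of-ratios scaling, removal of the trend in GC content and length, only the compared groups, a replicate block, omission of the 6 libraries rich in striatal or erythrocyte RNA, voom on recovered reads, omission of each library, and means without the 4-week libraries, the last chosen after seeing the data.

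The genes of the module and the other lists were chosen with earlier results of these data known. Genes described with values were those that passed at 6 or 8 weeks, in a mean of 4 times or between 2 and 8 weeks, plus Hmgcs1, Sqle, Dhcr7, Srebf2, Insig1, Abca1, Apoe and Cyp46a1. Idi1 and Nsdhl at 4 weeks, and groups that did not overlap, were described after their values were seen. Overlap of groups was examined for genes of the module only, so no share of all tested genes stands beside it at any time. Gene coordinates on mm10 and exon overlaps were read from GENCODE M21, and promoters from RefSeq. Levels near another gene's on the opposite strand are uncertain for that reason.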

Additional observations from a re-analysis of the deposited data

Results flagged for a closer look

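In 14 of 336 combinations of gene and group, over 28 genes, 1 library stood apart from the others of its group by Dixon's criterion. Chance flags about 1 in 20 groups. Of the CAC libraries, Abca1 was at 43.7 TPM in 4 weeks replicate 4, a striatum-rich library, against 21.5 to 26.7 TPM in the others. Dhcr7 was at 18.3 TPM in CAC 8 weeks replicate 1 (others 23.3 to 27.1), and Nr1h3 at 5.18 TPM in CAC 8 weeks replicate 5 (others 2.79 to 3.52).

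Of the NCAC libraries, 4 weeks replicate 3 was low in Insig2 (53.9 TPM, others 61.7 to 64.5) and Npc1 (17.7 TPM, others 19.5 to 19.9), and 4 weeks replicate 2 was high in Sqle (41.9 TPM, others 31.5 to 34.1). At 8 weeks Lss was at 18.8 TPM in replicate 3 (others 16.1 to 16.8) and Soat1 at 13 TPM in replicate 2 (others 17.2 to 18).

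Of the Con libraries, the striatum-rich 4 weeks replicate 2 was high in Acat2 (62.5 TPM, others 55.7 to 57.5) and Cyp46a1 (189 TPM, others 153 to 155), and 4 weeks replicate 3 was low in Lss (15.3 TPM, others 16.9 to 17.5) and Stard4 (18.9 TPM, others 20.9 to 21.7). Srebf2 was at 87.3 TPM in Con 6 weeks replicate 1 (others 103 to 109), and Ggps1 at 44.9 TPM in Con 8 weeks replicate 2 (others 38.2 to 39.7).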

How the results depend on the processing

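Of 31 results on single genes, none changed direction under any alternative run, and neither pseudocount lost a call. Calls were lost in 9 of the 31 with no filter, 5 with median-of-ratios scaling, 6 with only the compared groups, 6 with the GC and length trend removed, 12 with the replicate block, 10 without the 6 libraries rich in other RNA, 4 with voom, and 15 of 23 without the 4-week libraries (chosen after seeing the data). Tm7sf2 and Abca1 passed in both means of 4 times under each of these, the replicate block and each omission of 1 library. Fdft1 lost its call against Con in 17 of 41 such omissions, Insig2 in 22 and Stard4 in 12, and Mvd lost its call against NCAC in 13 of 40. Except where a value shows it, the cause of these changes was not tested.

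Counts of genes of the module that moved by over 1.5 times were as follows. With no filter CAC against Con gave 0 at 4 weeks and 3 at 8 weeks, CAC against NCAC 0 at 8 weeks, and NCAC between 8 and 2 weeks 2. With only the compared groups CAC against Con gave 0 at 2 weeks, 0 at 4 weeks and 4 at 8 weeks, CAC against NCAC 1 at 6 weeks and 0 at 8 weeks (83 of all genes), NCAC between 8 and 2 weeks 0 and Con 9. With the GC and length trend removed CAC against Con gave 1 at 4 weeks, CAC against NCAC 1 at 6 weeks and 3 at 8 weeks, and Con between 8 and 2 weeks 0; at 8 weeks 1439 of all genes passed against Con and 453 against NCAC. Median-of-ratios scaling and voom each gave 4 in CAC against Con at 8 weeks and 3 in Con between 8 and 2 weeks, and the scaling gave 1409 of all genes at 8 weeks. There 679 rose and 730 fell, where the main fit had 1757 and 499. Without the 6 libraries rich in other RNA CAC against Con gave 0 at 2 and 4 weeks, CAC against NCAC 4 at 6 weeks, 6 at 8 weeks and 6 over the 4 times, and Con between 8 and 2 weeks 4; at 8 weeks 3623 of all genes passed against Con and 1170 against NCAC. Without the 4-week libraries CAC against NCAC gave 2 over the remaining times.

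With replicate number as a block, 0 genes of the module passed in CAC against Con and 0 against NCAC at 8 weeks (794 and 31 of all genes), and 9 and 10 over the 4 times; the numbers did not pair the samples, and comparisons of 8 with 2 weeks could not be fitted so.

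Leaving out 1 library at a time gave 0 to 4 in CAC against Con at 2 weeks, 0 to 9 at 4 weeks, 1 to 9 at 8 weeks and 9 to 17 over the 4 times. In CAC against NCAC it gave 0 to 2 at 4 weeks, 0 to 1 at 6 weeks, 0 to 3 at 8 weeks and 10 to 14 over the 4 times. Between 8 and 2 weeks it gave 10 to 16 in CAC, 0 to 5 in NCAC and 0 to 4 in Con. Over all genes at 8 weeks it gave 1034 to 3070 against Con and 72 to 714 against NCAC. Depth limits Nr1h3 most, at 76 to 150 reads per library.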
